A study of Homo sapiens with 6 samples.

Results

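The transforming growth factor beta (TGF-beta) system of HK-2 cells was examined after knockdown of PARP1 through 10 genes, which were taken by symbol from the deposited count table of 30403 genes. They were the ligands TGFB1 and TGFB2, the receptors TGFBR1, TGFBR2, TGFBR3 and ACVR1B, and the latent TGF-beta binding proteins LTBP1, LTBP2, LTBP3 and LTBP4. All 10 were found, each once, and all 10 passed the filter on low counts, which left 16040 genes for testing. HK-2 is an immortalised line derived from human proximal tubule epithelium. The groups were shPARP1, cells given a plasmid for a short hairpin RNA against PARP1, and shCtrl, cells given a control hairpin plasmid, with 3 libraries each. Both plasmids were delivered with Lipofectamine 2000 to cells in serum-containing medium, and RNA was taken after 48 h, with no other treatment given in the labels. How many hairpin sequences were used, and what share of the cells took up plasmid, is not given in the sources used here. Values are therefore averages over all cells of a dish, in which fewer expressing cells and less RNA per cell cannot be told apart.

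TGF-beta ligands are secreted in a latent form, in which the mature dimer stays wrapped in its own propeptide. In most cells the propeptide is bound to a latent TGF-beta binding protein, which carries it out of the cell and fixes it to fibrillin and fibronectin fibres of the extracellular matrix until integrins, thrombospondin or proteases set it free. The free ligand binds TGFBR2, a type II receptor kinase, which then phosphorylates TGFBR1, a type I receptor kinase. TGFBR1 passes the signal to SMAD2 and SMAD3. In the kidney tubule the pathway is best known for its part in epithelial dedifferentiation and fibrosis.

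The control libraries held 24429683 to 26269194 counts each and the knockdown libraries 29387853 to 32809303, so every knockdown library was the deeper one. PARP1, the targeted gene, measured 262, 263 and 259 CPM (counts scaled to library size) in shCtrl and 26.9, 26.2 and 28.8 CPM in shPARP1, where 10.4% ± 0.524 (SD, n = 3) of the control level remained. Of 19 proximal tubule and epithelial markers, 13 passed the filter, among them CDH6 and KRT18 at 446 and 239.7 CPM in shCtrl (means of 3 libraries). The defining markers LRP2, CUBN, HNF4A, SLC34A1 and ANPEP were at or near 0, with 1, 45, 12, 36 and 38 counts over the 6 libraries together. These 5 markers were chosen after their values were seen. Of the 13 tested markers 8 were called lower and 3 higher in shPARP1 (edgeR adjusted p under 0.05, median log2 fold change -0.44). The shares over all genes tested were 28.5% lower and 27.3% higher. Against a 1.5-fold minimum (edgeR glmTreat) 1 of the 13 markers was called lower, against 5.998% of all genes, and 0 higher. The 19 markers together summed to 2277 to 2314 CPM in shCtrl and 2026 to 2075 in shPARP1.

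Of the 10 genes, 8 were lower in shPARP1, none was higher, and TGFBR1 and LTBP1 did not pass the test (edgeR quasi-likelihood test, adjusted p under 0.05 over all genes tested). Among all genes tested 28.5% were called lower and 27.3% higher. At an unadjusted p under 0.05 the number of higher genes among the 10 was also 0, and DESeq2 and limma-voom gave the same 8 lower and 0 higher. For 8 of the 10, every knockdown library lay below every control library in CPM, against 30.4% of all genes. When a fall was tested against a minimum of 1.5-fold (edgeR glmTreat), 6 of the 10 were called lower, against 5.998% of all genes. The median log2 fold change of the 10 genes was -0.83, and that of all genes tested was -0.01. The 10 genes were not chosen blind to these values, so the shares describe them and are no test of the group.

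**Figure D1:**
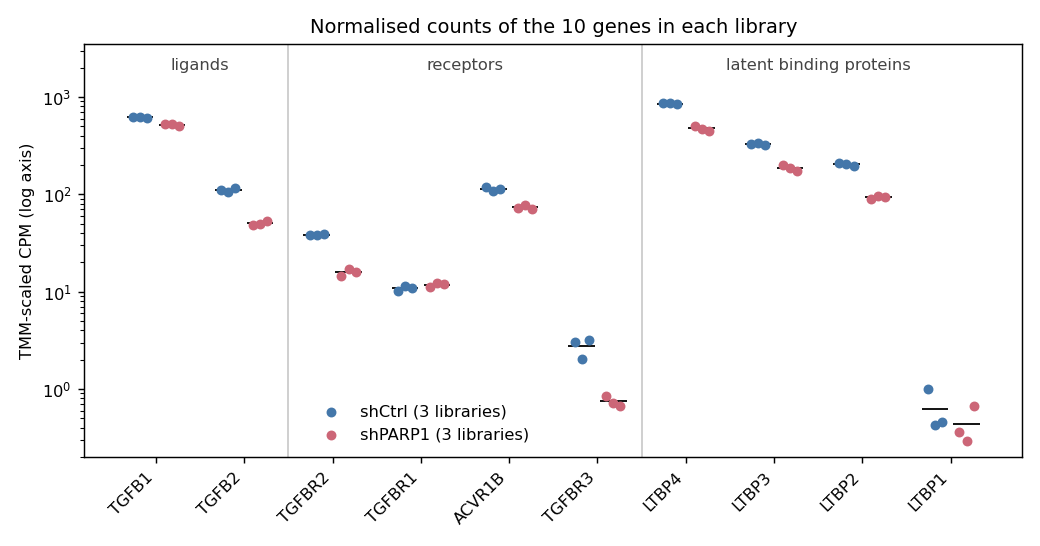
Normalised counts of the 10 genes in each library (TMM-scaled CPM, log axis), with shCtrl in blue, shPARP1 in red and a line at each mean of 3 libraries. The groups lie apart for all genes except TGFBR1 and LTBP1, whose points overlap.

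The genes spanned a wide range of levels. Per length, on the deposited FPKM scale (fragments per kilobase of transcript, scaled to library depth), the control level was 194 ± 3.97 for TGFB1, 136 ± 2.68 for LTBP4, 44.4 ± 1.41 for LTBP3 and 20.6 ± 0.536 for LTBP2 (SD, n = 3). TGFB2 at 18.9 ± 0.741 and ACVR1B at 17.8 ± 0.556 followed, and these neighbours did not differ beyond their spread, since their ranges met at 18.31. TGFBR2 stood at 7.06 ± 0.142, TGFBR1 at 1.42 ± 0.0961, TGFBR3 at 0.340 ± 0.0700 and LTBP1 at 0.0833 ± 0.0404. TGFB1 thus lay at the 98.4th percentile of the tested genes and LTBP1 at the 1.88th. In shPARP1 the order changed in the middle: ACVR1B (11.8 ± 0.503 FPKM) stood above LTBP2 (9.75 ± 0.290) and TGFB2 (8.97 ± 0.492), and the last pair overlapped. TGFBR3 and LTBP1 also met at the bottom in shPARP1, with ranges of 0.09 to 0.11 and 0.04 to 0.09 FPKM.

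The ligand genes differed in how far they fell. TGFB1, the main TGF-beta isoform of the injured kidney, measured 620.2, 625 and 613 CPM in shCtrl and 529, 524 and 498 CPM in shPARP1. All 3 knockdown libraries were lower, but they kept 83.4% ± 2.67 (SD, n = 3) of the control level, a log2 fold change of -0.26 (SE 0.03, edgeR adjusted p = 2.27e-10). TGFB2 measured 109.5, 105 and 115 CPM in shCtrl and 48.6, 49.6 and 53.7 CPM in shPARP1. Every knockdown value was thus under the lowest control value, and 46.1% ± 2.43 remained, a log2 fold change of -1.12 (SE 0.05, edgeR adjusted p = 3e-28). The 95% intervals of the fold changes, -0.32 to -0.20 for TGFB1 and -1.21 to -1.02 for TGFB2, did not meet. Among all genes tested, 4955 had a more negative fold change than TGFB1 and 466 than TGFB2. As a share of the summed FPKM of the ligand pair, TGFB1 made up 91.2%, 91.6% and 90.7% in shCtrl and 95.2%, 95.1% and 94.4% in shPARP1. The share was higher in each knockdown library (exact permutation test, two-sided, p = 0.1, the smallest that 3 against 3 libraries allow, and 0.14 adjusted over 7 ratios). TGFB3, which is not among the 10 genes, was a minor ligand at 4.08 ± 0.718 CPM in shCtrl and 2.51 ± 0.591 in shPARP1 (log2 fold change -0.70, edgeR adjusted p = 0.000788). TGFB1 overlaps exons of HNRNPUL1 on the opposite strand over 215 bases, and HNRNPUL1 stood at 399 ± 18.5 CPM in shCtrl and 374 ± 3.93 in shPARP1. TGFB2 shares 1371 exonic bases with TGFB2-OT1 on its own strand. TGFB2-OT1 has no row in the deposited count table, and whether its reads were counted for TGFB2 is not known.

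The DNA before the start sites of the ligand genes TGFB1 and TGFB2 is given here as a description. This pair was picked after its fold changes were seen, and a link between upstream sequence and fold change was not tested. The 250 bases upstream of each annotated start (RefSeq, GRCh38.p14) are given 5′ to 3′ on the gene's strand, chr19:41353923-41354172 on the minus strand for TGFB1 and chr1:218345086-218345335 on the plus strand for TGFB2. Capitals mark matches on either strand to any of 6 motifs: the GC box (GGGCGG), the E-box (CACGTG), the TATA box (TATAAA), the AP-1 site (TGANTCA), the cyclic AMP response element (TGACGTCA) and the SMAD box (CAGAC).
TGFB1: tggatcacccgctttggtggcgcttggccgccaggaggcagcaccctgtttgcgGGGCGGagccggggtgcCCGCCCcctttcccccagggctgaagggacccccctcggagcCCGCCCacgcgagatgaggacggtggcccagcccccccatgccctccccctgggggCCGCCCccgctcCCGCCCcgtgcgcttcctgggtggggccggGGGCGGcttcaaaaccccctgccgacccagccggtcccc
TGFB2: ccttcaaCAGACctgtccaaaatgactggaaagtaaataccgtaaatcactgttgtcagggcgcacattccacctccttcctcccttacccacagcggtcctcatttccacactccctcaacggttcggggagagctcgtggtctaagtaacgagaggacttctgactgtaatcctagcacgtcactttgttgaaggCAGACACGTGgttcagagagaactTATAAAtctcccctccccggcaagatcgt
The TGFB1 sequence was 76.8% G and C and held 6 GC boxes and none of the other motifs. The TGFB2 sequence was 50.4% G and C and held no GC box, but a TATA box 29 bases and an E-box 49 bases before the start, and SMAD boxes at 53 and 243 bases, the nearer of which shares a base with the E-box. That RefSeq start, 218345336, lies upstream of the TGFB2 gene start in GENCODE 29, 218346235, so these distances hold for the RefSeq start only. Among 34943 upstream windows of the same length, 42.5% held a GC box, 10.8% a TATA box, 6.32% an E-box, 38.0% a SMAD box, 6.59% an AP-1 site and 1.63% the cyclic AMP element, and the median content of G and C was 58.0%. All 10 genes had an entry, with 23 windows in all, since TGFBR1 alone has 8 annotated starts. Of the 23 windows, 13 held a GC box, 10 a SMAD box, 2 an E-box, 1 a TATA box and 1 the cyclic AMP element. By gene, a GC box lay in at least 1 window of 8 genes, a SMAD box in 5, an E-box in 2 and a TATA box in 1. The gene counts are not comparable with the shares of single windows, since some genes have several windows. These are letter matches and no evidence of binding.

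Among the receptors, the type II and type I partners parted. TGFBR2, which binds the ligand first, measured 37.8, 38.1 and 38.9 CPM in shCtrl and 14.6, 17.3 and 16.0 CPM in shPARP1. No knockdown library came near the control range, and 41.7% ± 3.45 (SD, n = 3) of the level remained (log2 fold change -1.26, SE 0.07, edgeR adjusted p = 2.31e-22). TGFBR1, its signalling partner, measured 10.2, 11.4 and 11.03 CPM in shCtrl and 11.1, 12.4 and 11.9 CPM in shPARP1. The ranges overlapped, and the log2 fold change of 0.12 did not pass (SE 0.10, 95% interval -0.07 to 0.31, edgeR adjusted p = 0.298). With each library left out in turn it ran from 0.07 to 0.17. The whole interval of TGFBR1 lay above those of TGFBR2, -1.41 to -1.12, and of ACVR1B, -0.72 to -0.54. TGFBR2 made up 83.9%, 82.5% and 83.3% of the summed FPKM of the receptor pair in shCtrl and 65.0%, 66.2% and 65.3% in shPARP1. The share was lower in each knockdown library, with a mean difference of -17.7 percentage points (exact permutation test, two-sided, p = 0.1, the smallest possible, and 0.14 adjusted over 7 ratios).

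The other receptors among the 10 genes were lower as well. TGFBR3, or betaglycan, is a co-receptor that presents ligand, TGFB2 above all, to TGFBR2. It measured 3.05, 2.04 and 3.19 CPM in shCtrl and 0.850, 0.713 and 0.672 CPM in shPARP1. Its log2 fold change of -1.88 (SE 0.25, edgeR adjusted p = 4.41e-09) was the most negative of the 10 genes and rested on 20 to 28 counts per knockdown library and 53 to 83 per control library. On the scale of log2(FPKM + 1), where the added 1 exceeds the gene's own level, the difference was -0.29 (limma-trend adjusted p = 0.00094), and with 0.1 added it was -1.15. ACVR1B, a type I receptor for activins and nodal, measured 119, 108.5 and 114 CPM in shCtrl and 72.1, 76.9 and 71.3 CPM in shPARP1. The groups lay well apart, with 64.5% ± 2.69 of the control level remaining (log2 fold change -0.63, SE 0.04, edgeR adjusted p = 1.26e-18). A fall of ACVR1B beyond 1.5-fold was not called (edgeR glmTreat adjusted p = 0.328), nor was one of TGFB1 (adjusted p = 1.0).

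**Figure D2:**
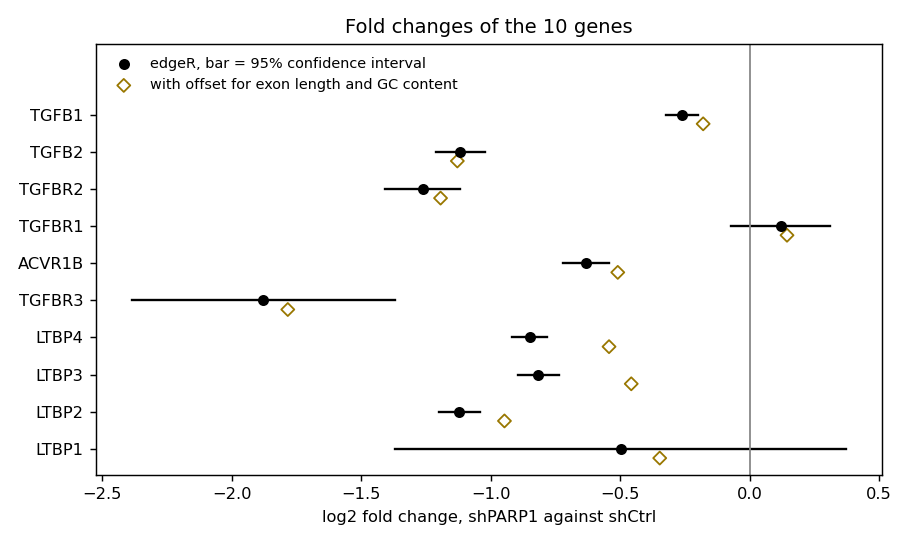
Log2 fold changes of the 10 genes, shPARP1 against shCtrl, with edgeR estimates as black points, bars for the 95% confidence interval, and open diamonds for the estimate after an offset for exon length and GC content. The intervals of TGFBR1 and LTBP1 include 0, and the diamonds of LTBP3 (-0.46) and LTBP4 (-0.54) lie closer to 0 than their points.

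The 3 abundant latent binding protein genes all fell, and more than TGFB1 did. LTBP4, a partner of latent TGF-beta and of elastic fibres, measured 869.9, 858 and 839 CPM in shCtrl and 508, 470.2 and 446 CPM in shPARP1. The knockdown libraries lay well below the controls, at 55.5% ± 3.61 (SD, n = 3) of their level (log2 fold change -0.85, SE 0.03, edgeR adjusted p = 4.8e-27). With a drop of 381 CPM it lost more normalised reads than any other of the 10 genes. LTBP3, which binds latent TGF-beta as well, measured 326, 335 and 322 CPM in shCtrl and 200.1, 186 and 172 CPM in shPARP1. Its ranges did not meet, and 56.8% ± 4.34 remained (log2 fold change -0.82, SE 0.04, edgeR adjusted p = 4.03e-23). LTBP2, a fibrillin-binding member of the family that does not bind latent TGF-beta, measured 208, 204 and 198 CPM in shCtrl and 90.5, 95.1 and 94.5 CPM in shPARP1. It kept 46.0% ± 1.24 of the control level (log2 fold change -1.12, SE 0.04, edgeR adjusted p = 7.64e-32). Its 95% interval, -1.20 to -1.04, lay below those of LTBP3 (-0.90 to -0.74) and LTBP4 (-0.92 to -0.78).

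LTBP1, which carries latent TGF-beta in many fibroblasts, was barely expressed. It had 24, 11 and 12 counts in shCtrl and 12, 9 and 20 in shPARP1, or 1.00, 0.424 and 0.461 against 0.364, 0.292 and 0.672 CPM. The ranges overlapped, and the interval of its log2 fold change of -0.50 ran from -1.37 to 0.37 (edgeR adjusted p = 0.343). The interval holds 0 and also the fold changes of LTBP2, LTBP3 and LTBP4. Single libraries decided the value, which was -0.01 without shCtrl replicate 1 and -0.91 without shPARP1 replicate 3.

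Transcripts of LTBP3 and LTBP4 are rich in G and C, at 67.8% and 66.7% for their longest annotated transcripts, against 38.9% for TGFB2 and 39.0% for TGFBR1. After an offset for exon length and GC content the log2 fold changes of LTBP3 and LTBP4 were -0.46 and -0.54, and both stayed called (edgeR adjusted p = 4.31e-23 and 7.4e-31). With the same offset LTBP2 was at -0.95, TGFB1 at -0.18, TGFB2 at -1.13, TGFBR2 at -1.19, TGFBR3 at -1.78 and ACVR1B at -0.51, each still called. The knockdown libraries were also deeper. With counts thinned to the smallest library total, TGFB1 was at -0.26, TGFB2 at -1.12, TGFBR2 at -1.26, TGFBR3 at -1.82, LTBP3 at -0.81 and LTBP4 at -0.85.

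The level of LTBP transcripts relative to ligand transcripts was lower in every knockdown library. The summed FPKM of the 4 LTBP genes went from 201 ± 4.35 in shCtrl to 114 ± 6.49 in shPARP1, and that of TGFB1 and TGFB2 from 213 ± 3.50 to 176 ± 4.54 (SD, n = 3). Their ratio was 0.957, 0.948 and 0.932 in the control libraries and 0.673, 0.636 and 0.630 in the knockdown libraries. Every knockdown library lay below every control library (exact permutation test, two-sided, p = 0.1, the smallest possible, and 0.14 adjusted over 7 ratios). The ratio was not recomputed with the offset for exon length and GC content. With that offset LTBP3 (-0.46), LTBP4 (-0.54) and TGFB1 (-0.18) all fell less, so the size of the drop in the ratio may depend on it. Without LTBP2, which does not bind the latent ligand, the control libraries had a ratio of 0.849 ± 0.0103 and the knockdown libraries one of 0.591 ± 0.0262 (SD, n = 3, exact permutation p = 0.1), an alternative added after the values were seen. Of the summed FPKM of all 4 LTBP genes, LTBP4 held 67.7% ± 0.264 in shCtrl and 68.6% ± 0.416 in shPARP1, and LTBP3 22.01% ± 0.373 and 22.8% ± 0.407. LTBP2 held 10.2% ± 0.113 and 8.60% ± 0.707, with exact permutation p = 0.1 for LTBP2 and LTBP4 and 0.2 for LTBP3 (0.14 and 0.233 adjusted over 7 ratios). LTBP1 held 0.0414% ± 0.0200 and 0.0535% ± 0.0264 (exact permutation p = 0.5).

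**Figure D3:**
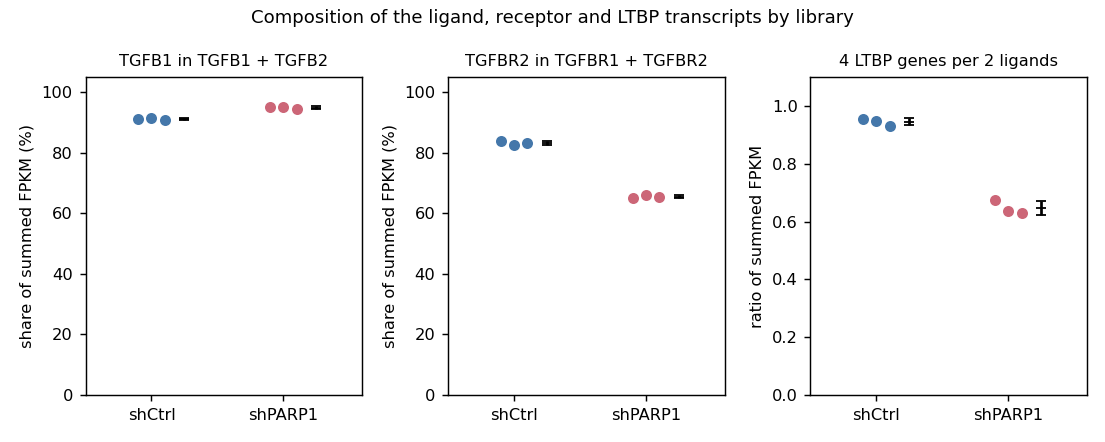
Share of TGFB1 in the summed FPKM of TGFB1 and TGFB2, share of TGFBR2 in that of TGFBR1 and TGFBR2, and the ratio of the summed FPKM of 4 LTBP genes to that of both ligands, with 1 point per library and the mean ± SD of 3 libraries beside them. TGFBR2 went from 83.2% ± 0.709 to 65.5% ± 0.612 of the receptor pair, and the LTBP to ligand ratio from 0.946 ± 0.0125 to 0.646 ± 0.0236.

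Some of the genes lie near each other. LTBP4 (chromosome 19, 40592883 to 40629818, plus strand, GRCh38) and TGFB1 (chromosome 19, 41301587 to 41353911, minus strand) are 671768 bases apart. Of the 11 genes tested between them, 6 were called higher and 3 lower, with a median log2 fold change of 0.25. The 11 include the joined entries MIA-RAB4B and RAB4B-EGLN2 beside RAB4B and EGLN2, so they are not all separate loci. LTBP2 (chromosome 14, 74498170 to 74612378, minus strand) and TGFB3 are 1345720 bases apart, and of 17 tested genes between them 11 were lower and 4 higher, with a median of -0.28. For all genes tested the shares were 28.5% lower and 27.3% higher. The other genes lie on chromosomes 1 (TGFB2 at 218346235 to 218444619 and TGFBR3 at 91680343 to 91906335), 2 (LTBP1 at 32946972 to 33399509) and 3 (TGFBR2 at 30606502 to 30694142), and on 9 (TGFBR1 at 99104038 to 99154192), 11 (LTBP3 at 65538805 to 65558930) and 12 (ACVR1B at 51951667 to 51997078).

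The rest of the pathway was described with 6 lists that hold none of the 10 genes. Of 103 genes tested in them, 68 were called lower (66.0%, against 28.5% of all genes) and 10 higher (9.71%, against 27.3%), with a median log2 fold change of -0.43. The lists are given by these counts and were not tested as sets. Genes that a small count leaves to be named, other than those among the 4 with the smallest p-values of each list, were chosen after their values were seen.

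Other receptors and co-receptors of the TGF-beta superfamily were lower for 13 of 15 tested genes and higher for none (median log2 fold change -0.69). The neuropilins NRP1 (-0.69) and NRP2 (-0.63), co-receptors that also bind TGF-beta, the syndecan SDC2 (-0.88) and the bone morphogenetic protein (BMP) co-receptor NEO1 (-0.62) fell. The type I receptor ACVR1 (-1.04), the BMP type II receptor BMPR2 (-1.05) and endoglin, ENG (-0.99), fell as well, while ACVR2A (-0.26) and RGMB (-0.21) did not pass. With the offset for exon length and GC content NRP2 was at -0.42.

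On the list of other superfamily ligands 11 of 14 tested genes were lower (median -0.48), with BMP1 counted among the 11. BMP8B went from 14.6 ± 0.576 to 4.44 ± 0.398 CPM (-1.71), and GDF7 (-1.55), BMP4 (-0.82) and BMP1 (-0.45) fell. BMP1 is a protease in spite of its name, which cleaves procollagens and LTBP1, and it was at -0.26 with the offset for exon length and GC content. INHBA, the subunit of activin A, was the 1 ligand that rose, from 259 ± 13.5 to 295 ± 5.68 CPM (0.19), and GDF11 (-0.11) and INHA (-0.10) did not pass. Of 8 ligand traps and antagonists, 6 fell and 1 rose (median -0.70). The activin antagonist FSTL3 went from 357 ± 8.89 to 164 ± 12.8 CPM (-1.12), and FSTL1 (-1.35), the small proteoglycan biglycan, BGN (-0.82), and the BMP antagonist GREM1 (-0.53) fell. The BMP antagonist NBL1 rose (0.52) and NOG (0.04) did not pass.

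Genes for the storage and release of latent TGF-beta were lower for 13 of 21 and higher for 4 (median -0.43). The falls included THBS1 (-1.34), which activates the latent complex, FBN2 (-1.30), a fibrillin to which binding proteins attach, and the integrin subunits ITGB3 (-1.08) and ITGB5 (-0.64), whose pairs with the alpha-v subunit can bind the propeptide. The 4 that rose were the integrin subunit ITGB8, also an activator, from 2.97 ± 0.975 to 7.47 ± 1.18 CPM (1.34), the plasminogen activators PLAT (0.88) and PLAU (0.10) and the transglutaminase TGM2 (0.48). ITGB6 (0.04) and MMP2 (-0.28) were among the 4 that did not pass, with EMILIN1 and LRRC32.

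**Figure D4:**
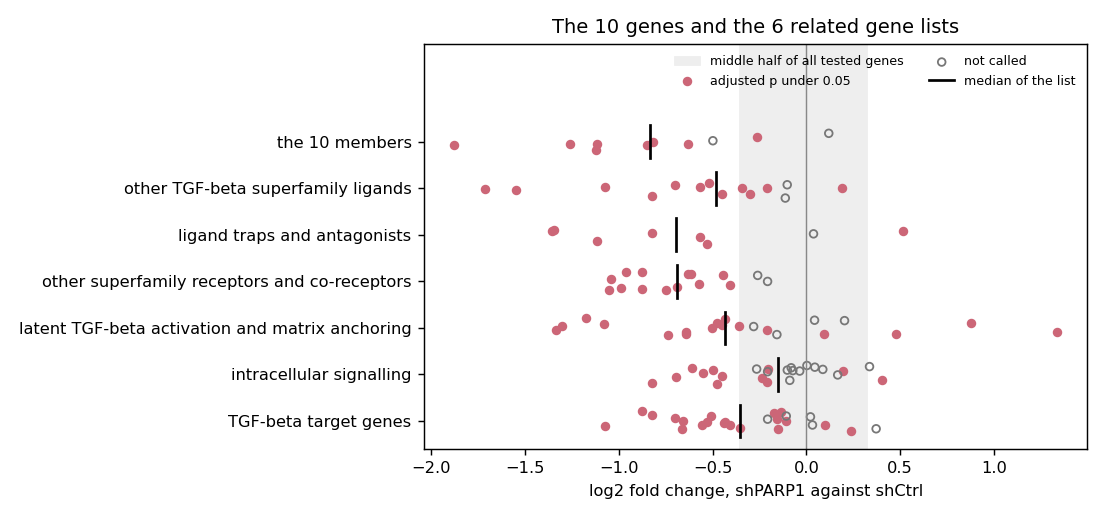
Log2 fold changes of the 10 genes and of the tested genes of 6 related lists, with called genes filled, other genes open, list medians as black lines, and the middle part of all tested genes (first quartile to last) shaded. The median lies at -0.83 for the 10 genes, at -0.69 for other receptors and at -0.15 for intracellular signalling.

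Of 24 intracellular signalling genes 10 fell, 2 rose and 12 did not pass (median -0.15). With the offset for exon length and GC content the counts were 8 lower and 5 higher, and without shCtrl replicate 3 they were 10 and 4. The inhibitory SMADs SMAD7 (-0.82) and SMAD6 (-0.70) and the receptor-associated TGFBRAP1 (-0.61) fell, and STRAP (0.40) and FKBP1A (0.20), which bind the receptors, rose. The signal carrier SMAD3 went from 132 ± 4.78 to 115 ± 1.75 CPM (-0.20, edgeR adjusted p = 2.17e-05) and the shared partner SMAD4 fell (-0.48). The call of SMAD3 ended with the offset for exon length and GC content (-0.03, adjusted p = 0.444). STRAP was at 0.24 and FKBP1A at 0.13 with that offset, both still called. SMAD2 at 0.17 did not pass (adjusted p = 0.0759). It was called higher with the offset (0.37, adjusted p = 2.36e-05), without shCtrl replicate 1 (0.20, adjusted p = 0.0484) and without shCtrl replicate 3 (0.22, adjusted p = 0.0258).

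Target genes of TGF-beta were lower for 18 of 25 and higher for 2 (median -0.36). Against a 1.5-fold minimum (edgeR glmTreat) 3 of the 25 were called lower, against 5.998% of all genes, and 0 higher. The connective tissue growth factor CTGF (-1.08), TGFBI (-0.53) and fibronectin, FN1 (-0.43), fell. The falls of TGFBI and FN1 were not called against the 1.5-fold minimum. CTGF went from 156 ± 9.07 to 74.1 ± 2.003 CPM. TAGLN (0.24) and CYR61 (0.10) rose, and the call of CYR61 ended with the offset for exon length and GC content (0.03, adjusted p = 0.323). SKIL, ID3, CDKN2B, ZEB1 and TPM1 did not pass. BMP1, FN1, SMAD7 and SKIL stand on more than 1 list and count once among the 103 genes.

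Markers of other cell types moved with the knockdown at low levels. The summed level of the 8 fibroblast and mesangial markers in the table was 21.6 to 24.4 CPM in shCtrl and 12.0 to 12.8 in shPARP1, with LUM (-0.94), PDGFRB (-1.49) and ACTA2 (-0.88) lower and THY1 (1.03) higher. The call of ACTA2 ended when shCtrl replicate 3 (adjusted p = 0.0670) or shPARP1 replicate 2 (-0.56, adjusted p = 0.150) was left out, and that of THY1 when shCtrl replicate 3 (0.68, adjusted p = 0.0970) or shPARP1 replicate 1 (adjusted p = 0.0949) was left out. The defining markers PDGFRA, COL3A1 and DCN had 5, 27 and 33 counts over the 6 libraries together. The 5 endothelial markers summed to 2.23 to 2.81 CPM in shCtrl and 1.11 to 1.39 in shPARP1, where TIE1 (-1.25) was the 1 gene tested and CDH5 and PECAM1 had 3 and 15 counts over 6 libraries. The 7 leukocyte markers summed to 14.5 to 16.5 CPM and 11.4 to 12.1 CPM, with CD14 (-1.58) lower, CD68 (0.35) higher, ITGAM not called except without shCtrl replicate 3, and CD3E at 2 counts over the 6 libraries. Their part in the falls of the 10 genes was not tested.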

How the data were processed

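RNA of 6 HK-2 libraries (3 shPARP1, 3 shCtrl) was poly(A)-selected and sequenced with a stranded kit, per the labels' protocols. The authors deposited raw read counts per gene as whole numbers. They also deposited FPKM, which keep 2 decimals, with the gene length and total behind them not given. The submitters' processing notes name GRCh38, bcl2fastq, TopHat2 and edgeR. How reads were counted, by strand or not, and with which annotation, is not given in the sources used here, so reads of genes that overlap on opposite strands may be mixed.

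Counts were tested across all genes with edgeR 4.0.16 in R 4.3.3 (filterByExpr, TMM, robust quasi-likelihood F test, two-sided, Benjamini-Hochberg over 16040 genes, called at adjusted p under 0.05 with no minimum fold). CPM are TMM-scaled. SE is the log2 fold change divided by the square root of F, and intervals are 95%. Values that compare genes use FPKM. Ratios were tested by exact permutation over libraries (7 ratios). The labels do not say that replicates were separate cultures, so p-values may measure technical spread only. Within groups, library pairs differed beyond counting noise (chi-square per degree of freedom 2.54 to 4.54), and each counted as 1 replicate. In counts simulated for shPARP1 against shCtrl over 16040 genes, 40% of 50 genes with a 1.25-fold change were recovered, and 94% of 50 with a 2-fold change. Only 50 genes were altered at each fold change (1.25, 1.5, 2 and 4), while 8937 genes were called in the data. The adjusted p depends on the share of changed genes, so this recovery holds for the simulation only.

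The 10 genes, the lists and the rule for named genes (the 10 genes, PARP1, and up to 4 called genes of each list by smallest p-value) were chosen with earlier results of these data known. A few genes named by this rule are left out of the text. Alternatives were RLE and upper-quartile scaling, no filter, a filter of 1 CPM in 3 libraries, DESeq2 1.42.0, limma 3.58.1 (voom, and trend on log2(FPKM + 1) and log2(FPKM + 0.1)), glmTreat at 1.5-fold, the replicate block, each library left out, and an offset from natural splines (4 degrees of freedom) on log2 merged exon length and GC content of the longest transcript in GENCODE 29, available for 99.2% of tested genes. Thinning to the smallest total was added after seeing the data. Upstream sequences came from RefSeq (GRCh38.p14). At these depths 3 counts are 0.0914 to 0.123 CPM, which covers counting error only.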

Additional observations from a re-analysis of the deposited data

How the results depend on the processing

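The 8 called genes among the 10 kept their direction under all 18 alternatives, and 142 of their 144 values also kept their call. The exceptions were TGFB1 and ACVR1B against a 1.5-fold minimum. Against that minimum the counts over all genes were 962 lower and 609 higher, and over the other pathway genes 20 lower and 2 higher. Leaving out each library gave 8 lower and 0 higher of the 10, 4196 to 4416 lower and 4024 to 4349 higher of all genes, and 63 to 68 lower and 10 to 12 higher of the other pathway genes. The LTBP1 share changed sign, to -0.00298 percentage points, without shPARP1 replicate 3, and over libraries left out it ranged from -0.00298 to 0.0237. Among genes that were not called, GDF11 changed sign with the length and GC offset (0.034), NOG with that offset (-0.0703) and over libraries left out (-0.11 to 0.16), INHA over libraries left out (-0.39 to 0.26) and ITGB6 likewise (-0.0698 to 0.21).

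The labels number the libraries of each group 1 to 3. Deviations of same-numbered libraries from their group means had correlations of 0.04, -0.004 and 0.04, and those of other pairs ran from -0.059 to 0.025. With 3 libraries per group these values cannot tell whether same-numbered libraries shared a culture or batch. With the replicate number as a block, 8 of the 10 genes were lower and 0 higher, 4617 and 4443 of all genes, and 69 and 10 of the other pathway genes, and the paired sign-flip p of the ratios was 0.25 or more, the smallest that 3 pairs allow. Depth limited LTBP1, with 9 to 24 counts per library. TGFBR3 also had few counts, 20 to 28 per knockdown library. On the FPKM scale the size of its fall depended on the number added to FPKM. With counts thinned to the smallest library total its log2 fold change was -1.82, against -1.88 in the main fit.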
